A study of Mus musculus with 13 samples.

Results

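The genes described here are the neighbours of the mouse immunoglobulin kappa light-chain locus on chromosome 6. They were chosen by position: every gene of the deposited count table that starts on chromosome 6 from 60 Mb to under 80 Mb, with 10 or more counts in 4 or more libraries, leaving out rows whose names start with Igk. The rule took 64 of the 46958 genes in the table, out of 308 genes in that window that are not Igk rows. The threshold uses counts without regard to genotype: 51 of the 64 genes passed it in all 13 libraries, and 0 passed it through libraries of a single genotype. Il12rb2, just inside the threshold, had 10 counts in 4 libraries. Lrrtm1 and RP23-177G20.1, just outside it, reached that level in 3 libraries.

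Messenger RNA was sequenced from renal glomeruli, the filtering units of the kidney, which had been purified with magnetic beads. All mice were 6 months old and of a mixed C57/BL6, 129/SV and BALB/c background. By genotype label, 4 libraries are kFRA (LCDD), 4 are DH-LMP2A and 5 are WT. Every library pooled 3 mice, except WT replicates 3, 4 and 5, which came from 1 mouse each. As background that is not in the labels, kFRA is known as a human light-chain gene from a patient with light chain deposition disease, placed in the mouse kappa locus, and DH-LMP2A as a viral membrane protein gene placed in the heavy-chain locus. The labels do not say whether the LCDD mice also carried DH-LMP2A, or how the WT mice are related to the others. The comparison across genotypes asks whether the neighbours of that locus differ in level.

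The kappa locus makes light-chain transcripts in B cells and plasma cells, under strong enhancers that lie within and beyond the locus. Its neighbours serve general functions and most are transcribed in many cell types, among them a stress kinase of the endoplasmic reticulum, enzymes of metabolism, proteins of vesicle traffic, and the paired chains of the CD8 co-receptor of T cells.

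In the deposited table, Igk rows spanned chromosome 6 from 67555497 to 70726966 on GRCm38. Of the 64 flanking genes, 17 lay to the left of these rows and 47 to the right, 44 of the latter before 75 Mb. GENCODE M21 matched 54 of the 64 by name, 47 of them protein coding. Spans of 20 of the 64 overlapped another gene of the set, for example Gadd45a with E230016M11Rik, Smyd1 with Krcc1 and Tmem150a with Rnf181. The libraries came from a stranded kit, but the strand setting of the counting is not given in the sources used here, so counts of overlapping genes may hold reads of the partner.

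Total counts per library ran from 16687509 to 30587890. Libraries differed in cell content within each genotype. The summed level of 10 tubule markers ranged from 570 to 2169 CPM (read counts over each library's TMM-adjusted size) in LCDD, from 978 to 3324 CPM in DH-LMP2A and from 300 to 3495 CPM in WT. The summed level of 6 podocyte markers ranged from 6729 to 29234 CPM in LCDD, 15119 to 29778 CPM in DH-LMP2A and 13811 to 30445 CPM in WT, so the labelled tissue carried its defining markers in every library. The 4 mesangial markers summed to 2488 to 3829 CPM in LCDD, above every DH-LMP2A library (2047 to 2428 CPM), and to 2093 to 2602 CPM in WT. The 5 endothelial markers summed to 4321 to 10040 CPM in LCDD, 2930 to 8035 CPM in DH-LMP2A and 6092 to 10055 CPM in WT. The Y-linked gene Ddx3y had 208 to 2296 counts in the LCDD and DH-LMP2A libraries, and at most 1 count in WT libraries other than WT replicate 2, which had 197. Every comparison with WT therefore also compares different sex compositions, and these cannot be told apart. Sex composition varied within LCDD and DH-LMP2A too, so their comparison is not free of it. Xist, transcribed in female cells, ran from 0.485 to 1000 CPM in LCDD and from 38.0 to 1001 CPM in DH-LMP2A. LCDD replicate 3 had 0.485 CPM and DH-LMP2A replicate 3 had 1001 CPM. In glomeruli as a mixture of cells, fewer cells of a type and less RNA per cell cannot be told apart.

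None of the 64 flanking genes was called in any of the 3 comparisons. With edgeR's quasi-likelihood test and an adjusted p under 0.05 over all 16738 genes tested, 0 of 64 were called between LCDD and DH-LMP2A, where 2.00% of all genes were called. Between LCDD and WT the count was 0 of 64, against 1.84% of all genes. Between DH-LMP2A and WT it was 0 of 64, against 0.627%. The smallest adjusted p among the flanking genes was 0.162, 0.148 and 0.179 in these comparisons. At an unadjusted p under 0.05, 4 of 64 passed between LCDD and DH-LMP2A (all genes 13.1%), 4 of 64 between LCDD and WT (all genes 12.0%) and 11 of 64 between DH-LMP2A and WT (all genes 12.5%). By DESeq2 the counts at an adjusted p under 0.05 were 0, 1 and 0, the 1 being Smyd1. Over all genes DESeq2 called 812, 726 and 458 in these comparisons.

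The fold changes of the flanking genes were small on balance. The median log2 fold change was -0.01 for LCDD against DH-LMP2A, -0.04 for LCDD against WT and -0.03 for DH-LMP2A against WT, beside -0.01, 0.01 and 0.00 over all genes tested. The median absolute log2 fold change was 0.24, 0.13 and 0.23, beside 0.21, 0.17 and 0.19 over all genes. The missing calls do not show equal expression, so the width of the intervals matters. The 95% interval of the fold change lay within 2-fold either way for 39, 45 and 36 of the 64 genes in the same order of comparisons. These shares are 60.9%, 70.3% and 56.25%, beside 62.9%, 66.5% and 66.3% of all genes tested. The interval lay within 1.5-fold for 24, 26 and 25 of the 64, or 37.5%, 40.6% and 39.1%, beside 38.8%, 42.5% and 41.9% of all genes. For the genes outside the 2-fold limit, the interval reached a 2-fold change in at least 1 direction.

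**Figure D1:**
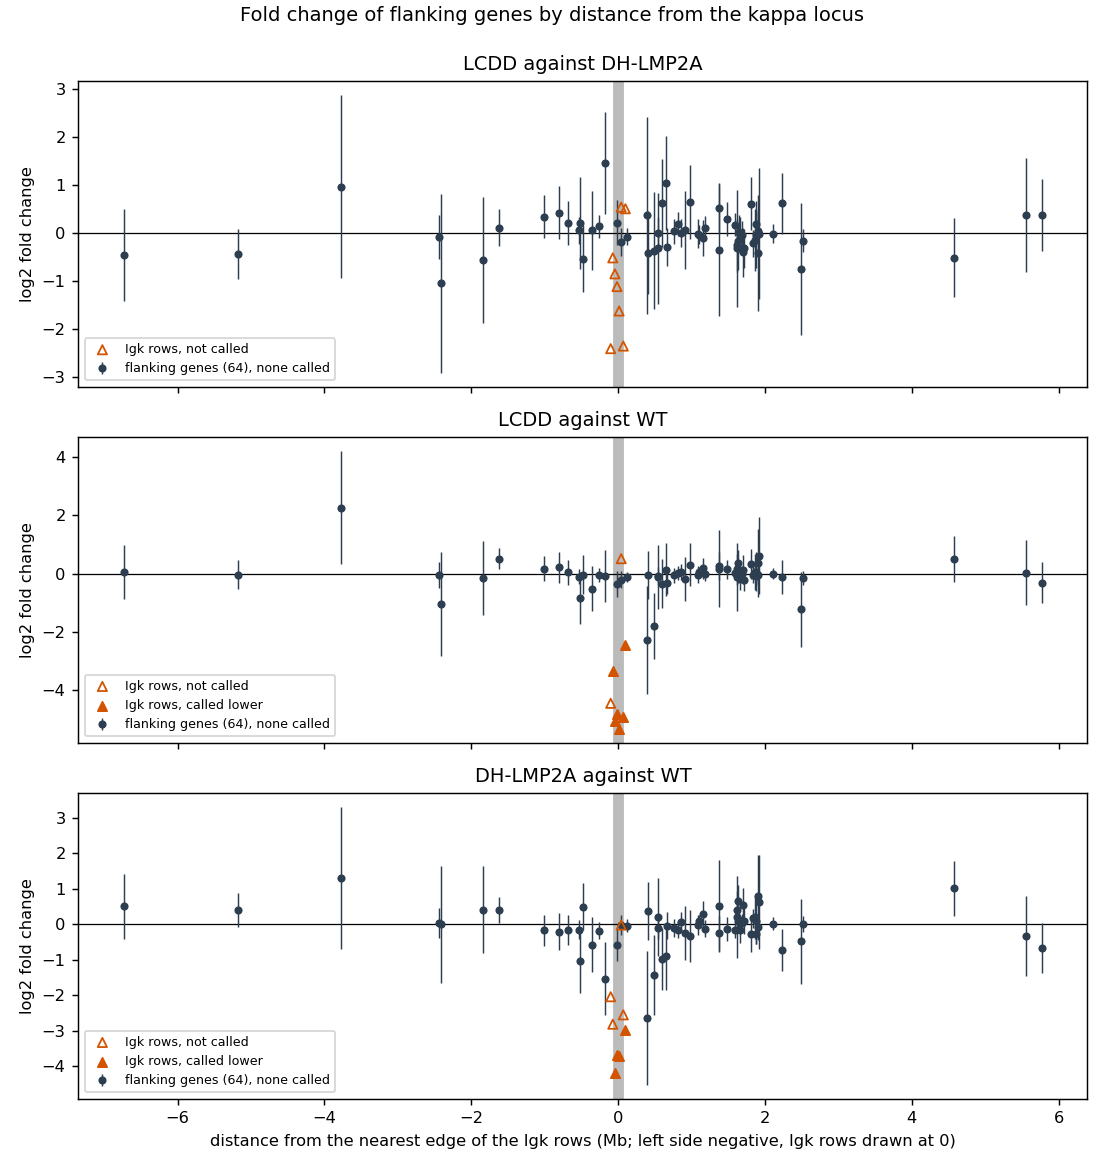
Log2 fold change (edgeR, vertical axis) of each of the 64 flanking genes against its distance in Mb from the nearest edge of the Igk rows (horizontal axis, left side negative), for the 3 comparisons. Bars are 95% intervals, and triangles at 0 are the 8 Igk rows tested. The flanking genes scatter around 0 with 0 calls, while 6 and 4 Igk rows lie far below 0 and were called lower against WT. Apart from Igkc, these rows passed the filter for low counts through WT, where they are high.

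The Igk rows between the flanks showed another picture. Their summed level was 6.51 to 11.7 CPM in LCDD, 4.92 to 12.2 CPM in DH-LMP2A and 39.7 to 98.3 CPM in WT, so both other genotypes lay below every WT library. Igkc, the kappa constant region, stood at 7.12 ± 1.80 CPM (SD, n = 4) in LCDD, 5.01 ± 2.18 (n = 4) in DH-LMP2A and 39.4 ± 21.1 (n = 5) in WT. Of 164 Igk rows in the window, 8 passed the filter for low counts and were tested. Of these 8, 6 were called lower in LCDD than in WT, where 1.84% of all genes were called. Against WT, 4 were called lower in DH-LMP2A (all genes 0.627%). Apart from Igkc, the called rows averaged at most 0.119 CPM in LCDD and DH-LMP2A. They passed the filter through WT, where they are high, so the direction of their calls was set beforehand and is only a description. Between LCDD and DH-LMP2A 0 of 8 were called. The level of the human light-chain gene was not analysed here.

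The members nearest to the Igk rows on the right were Rpia and Eif2ak3. Rpia, ribose 5-phosphate isomerase of the pentose phosphate pathway, lies 38.8 kb beyond the last Igk row, on the minus strand at 70765720 to 70792232. Eif2ak3 encodes PERK, the kinase of the unfolded protein response that slows translation when the endoplasmic reticulum is loaded, and lies 118 kb beyond it on the plus strand at 70844515 to 70905245. Their upstream sequences are shown because these genes are the nearest to the locus on that side. They are the 250 bases before each RefSeq start on GRCm38.p6, 5′ to 3′ on the gene's own strand. The RefSeq start of Rpia lies inside the span of the deposited table, so the 3′ end of its window, with the GC box, lies within that span. Capitals mark GGGCGG, the GC box, in Rpia at chr6:70792176-70792425, and CCAAT or its complement ATTGG in Eif2ak3 at chr6:70844265-70844514.
Rpia: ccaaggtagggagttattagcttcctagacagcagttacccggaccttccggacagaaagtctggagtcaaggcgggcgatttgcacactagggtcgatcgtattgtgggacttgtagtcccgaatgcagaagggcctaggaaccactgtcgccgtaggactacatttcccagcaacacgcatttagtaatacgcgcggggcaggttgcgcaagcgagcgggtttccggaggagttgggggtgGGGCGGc
Eif2ak3: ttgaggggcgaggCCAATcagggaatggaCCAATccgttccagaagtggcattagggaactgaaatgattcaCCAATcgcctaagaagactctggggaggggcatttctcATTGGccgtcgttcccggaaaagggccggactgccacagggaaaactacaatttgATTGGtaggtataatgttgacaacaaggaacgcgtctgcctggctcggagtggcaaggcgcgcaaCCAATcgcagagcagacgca
The Rpia window held 1 GC box and 0 CCAAT boxes, and the Eif2ak3 window held 6 CCAAT boxes and 0 GC boxes, counting both strands. Of 32851 RefSeq promoter windows of this length, 33.8% held CCAAT and 32.7% held GGGCGG. Windows were found for 41 of the 64 flanking genes, of which 13 held CCAAT and 25 held GGGCGG. These matches describe letters and not bound sites.

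Rpia counted 18.9, 19.2, 25.6 and 23.9 CPM in the LCDD libraries. It counted 24.8, 24.9, 27.01 and 23.0 CPM in DH-LMP2A. In WT it counted 24.2, 30.9, 24.9, 25.7 and 21.01 CPM. LCDD replicates 1 and 2 were the lowest of all 13 libraries, and the other LCDD libraries lay among the rest. The log2 fold change was -0.19 for LCDD against DH-LMP2A (95% interval -0.48 to 0.11), -0.21 against WT (-0.49 to 0.07) and -0.02 for DH-LMP2A against WT (-0.30 to 0.26).

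Eif2ak3 was among the steadiest of the flanking genes. It counted 55.2, 47.2, 56.5 and 48.9 CPM in LCDD. DH-LMP2A libraries counted 56.9, 53.9, 52.9 and 55.1 CPM, and WT libraries 53.7, 52.4, 56.5, 58.8 and 59.9 CPM. All 3 genotypes overlapped, and the highest library stood 1.27 times above the lowest. For LCDD against DH-LMP2A the log2 fold change was -0.07 (-0.26 to 0.11), for LCDD against WT -0.12 (-0.29 to 0.06) and for DH-LMP2A against WT -0.04 (-0.22 to 0.13). Each of these intervals excludes a 1.5-fold change. Of 9 genes of the PERK branch, 1 was called between LCDD and DH-LMP2A and 1 between LCDD and WT, and both times it was Asns, asparagine synthetase. Over all genes 2.00% and 1.84% were called in these comparisons. Its log2 fold change was 1.82 (SE 0.28, edgeR adjusted p = 0.00702) and 1.15 (SE 0.26, adjusted p = 0.0450).

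On the left, Il12rb2, a chain of the interleukin 12 receptor of T cells and natural killer cells, lies 179 kb before the Igk rows, at 67291318 to 67376188 on the minus strand. It had 14, 14, 2 and 9 reads in the LCDD libraries. The DH-LMP2A libraries had 2, 5, 2 and 4 reads, and the WT libraries 15, 8, 8, 8 and 10. DH-LMP2A lay below every WT library, and LCDD replicate 3 had as few reads as the lowest DH-LMP2A libraries. It reached 10 counts in 2 LCDD, 2 WT and 0 DH-LMP2A libraries, so it met the count threshold only through the groups where it is high, and its contrasts with DH-LMP2A are a description. The log2 fold change was 1.45 for LCDD against DH-LMP2A (SE 0.49) and -1.53 for DH-LMP2A against WT (SE 0.47). It is also 1 of the 4 and 1 of the 11 genes with an unadjusted p under 0.05 in these comparisons. Without LCDD replicate 3, the LCDD library at the level of DH-LMP2A, the former value was 1.73. The gene was then called, but that call carries the bias from the threshold and leaves out the library that goes the other way. Il12rb2 overlaps Serbp1, which runs the other way and had 76452 reads over all libraries, against 101 for Il12rb2. Serbp1, an RNA-binding protein, had 249 ± 17.0 CPM (SD, n = 4) in LCDD, 227 ± 23.7 (n = 4) in DH-LMP2A and 258 ± 24.7 (n = 5) in WT.

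Among the 10 flanking genes within 0.5 Mb of the Igk rows, every log2 fold change of LCDD against WT was below 0, with a median of -0.16 and a range from -2.28 to -0.04. The -2.28 is Rpl34-ps1, at 15.2 CPM in WT replicate 1 and at most 1.21 CPM in any other library. Values near 0 include Il12rb2 (-0.08, SE 0.41), Thnsl2 (-0.05, SE 0.38) and E230016M11Rik (-0.04, SE 0.31). With the number in the sample titles as a block, Serbp1 turned to 0.01 and the others stayed below 0. For DH-LMP2A against WT 8 of 10 were below 0, with a median of -0.39. These comparisons share the WT libraries. Between LCDD and DH-LMP2A 5 of 10 were below 0, with a median of -0.01. The 14 genes at 0.5 to 1 Mb gave medians of -0.08, -0.16 and 0.12 for LCDD against WT, DH-LMP2A against WT and LCDD against DH-LMP2A. The 28 genes at 1 to 2 Mb gave 0.06, 0.10 and -0.04. The 12 genes at 2 to 10 Mb gave -0.05, 0.01 and -0.12, with 8, 6 and 8 of them below 0. Over all genes tested, 51.7%, 50.1% and 49.0% of the log2 fold changes were above 0 in that order. None of the 64 flanking genes was called, and no test was made of distance itself.

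**Figure D2:**
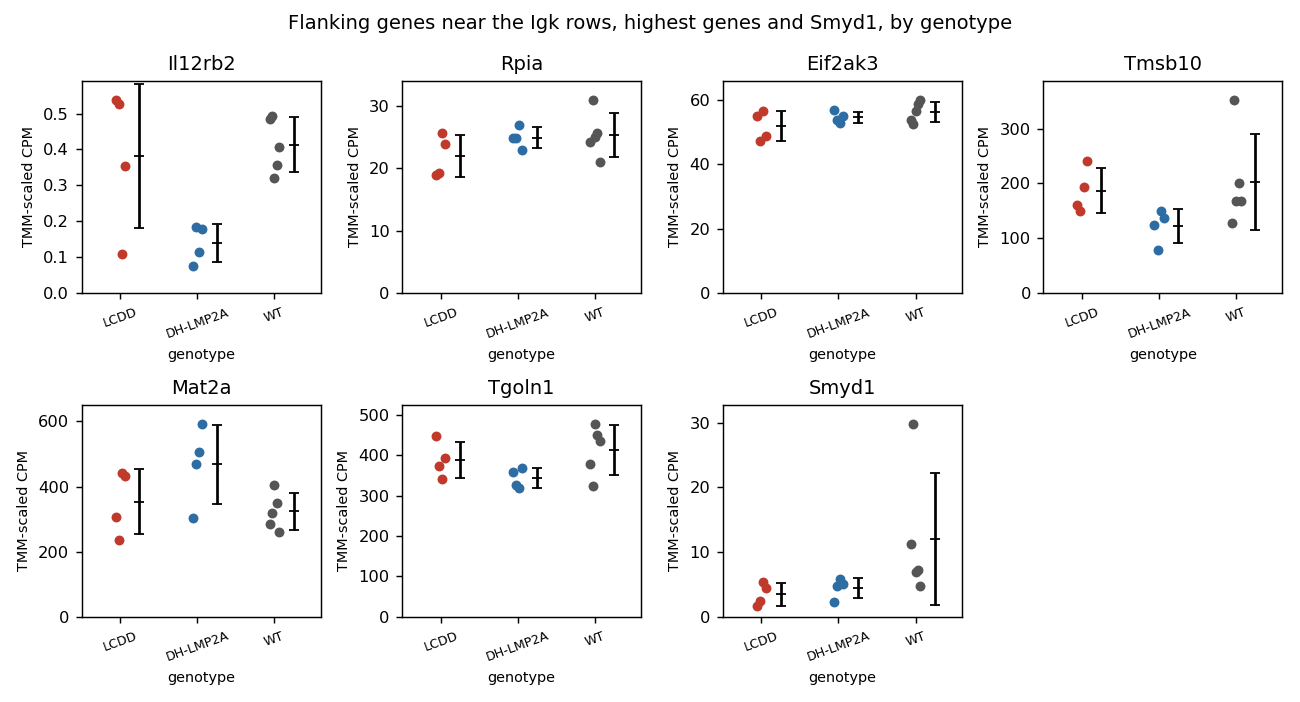
CPM (vertical axes, from 0) of Il12rb2, Rpia and Eif2ak3, which lie near the Igk rows, of the genes with the highest levels, and of Smyd1, in each library by genotype. Points are libraries, and bars are the mean ± SD (n = 4, 4 and 5). LCDD and DH-LMP2A overlap in every panel except Tmsb10, and WT replicate 2 stands alone in Smyd1 at 29.8 CPM.

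Per kilobase of gene length, the highest levels belonged to Tmsb10, Mat2a and Tgoln1. Tmsb10, the actin-binding thymosin beta 10, averaged 136 ± 52.6 RPKM (CPM per kilobase of gene length, SD, n = 13). It counted 161, 150, 194 and 242 CPM in LCDD. It counted 124, 78.2, 149 and 137 CPM in DH-LMP2A. In WT it counted 127, 352, 167, 201 and 167 CPM. Every LCDD library lay above every DH-LMP2A library, by a margin of less than 1 CPM at the closest, and WT replicate 2 stood above all others. The log2 fold change was 0.61 (SE 0.29, edgeR adjusted p = 0.398) for LCDD against DH-LMP2A and -0.73 (SE 0.28, adjusted p = 0.306) for DH-LMP2A against WT. In the same comparisons the median log2 fold change was 0.53 and -0.80 over the endothelial markers and 0.31 and -0.23 over the mesangial markers, with 0 markers called, and their part in the Tmsb10 values was not tested.

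Mat2a makes S-adenosylmethionine, the methyl donor of the cell, and averaged 84.1 ± 23.8 RPKM (SD, n = 13). It counted 305, 234, 441 and 433 CPM in LCDD. It counted 302, 471, 506 and 592 CPM in DH-LMP2A. In WT it counted 285, 320, 404, 350 and 260 CPM. Replicate 1 of each genotype was near 300 CPM, and the other DH-LMP2A libraries were the highest of all. For DH-LMP2A against WT the log2 fold change was 0.53 (SE 0.23, edgeR adjusted p = 0.358) and for LCDD against DH-LMP2A it was -0.40 (SE 0.24, adjusted p = 0.530). With the mean level of the tubule markers as a covariate, Mat2a was called between DH-LMP2A and WT at 0.81 (adjusted p = 0.0314), where 5.01% of all genes were called.

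Tgoln1, a protein of the trans-Golgi network, averaged 76.6 ± 10.6 RPKM (SD, n = 13). It counted 449, 374, 342 and 393 CPM in LCDD. It counted 358, 327, 318 and 369 CPM in DH-LMP2A. In WT it counted 380, 323, 478, 450 and 435 CPM. The genotypes overlapped, and the log2 fold change was 0.18, -0.09 and -0.27 for LCDD against DH-LMP2A, LCDD against WT and DH-LMP2A against WT. Across the 64 genes, 46 averaged 1 RPKM or more and 23 averaged 10 RPKM or more. The highest library stood less than 2 times above the lowest for 28 genes, and more than 4 times above it, or against a library at 0, for 22. The steadiest were Kcmf1, a ubiquitin ligase, at 1.22 times and Immt, an organiser of mitochondrial cristae, at 1.23 times.

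**Figure D3:**
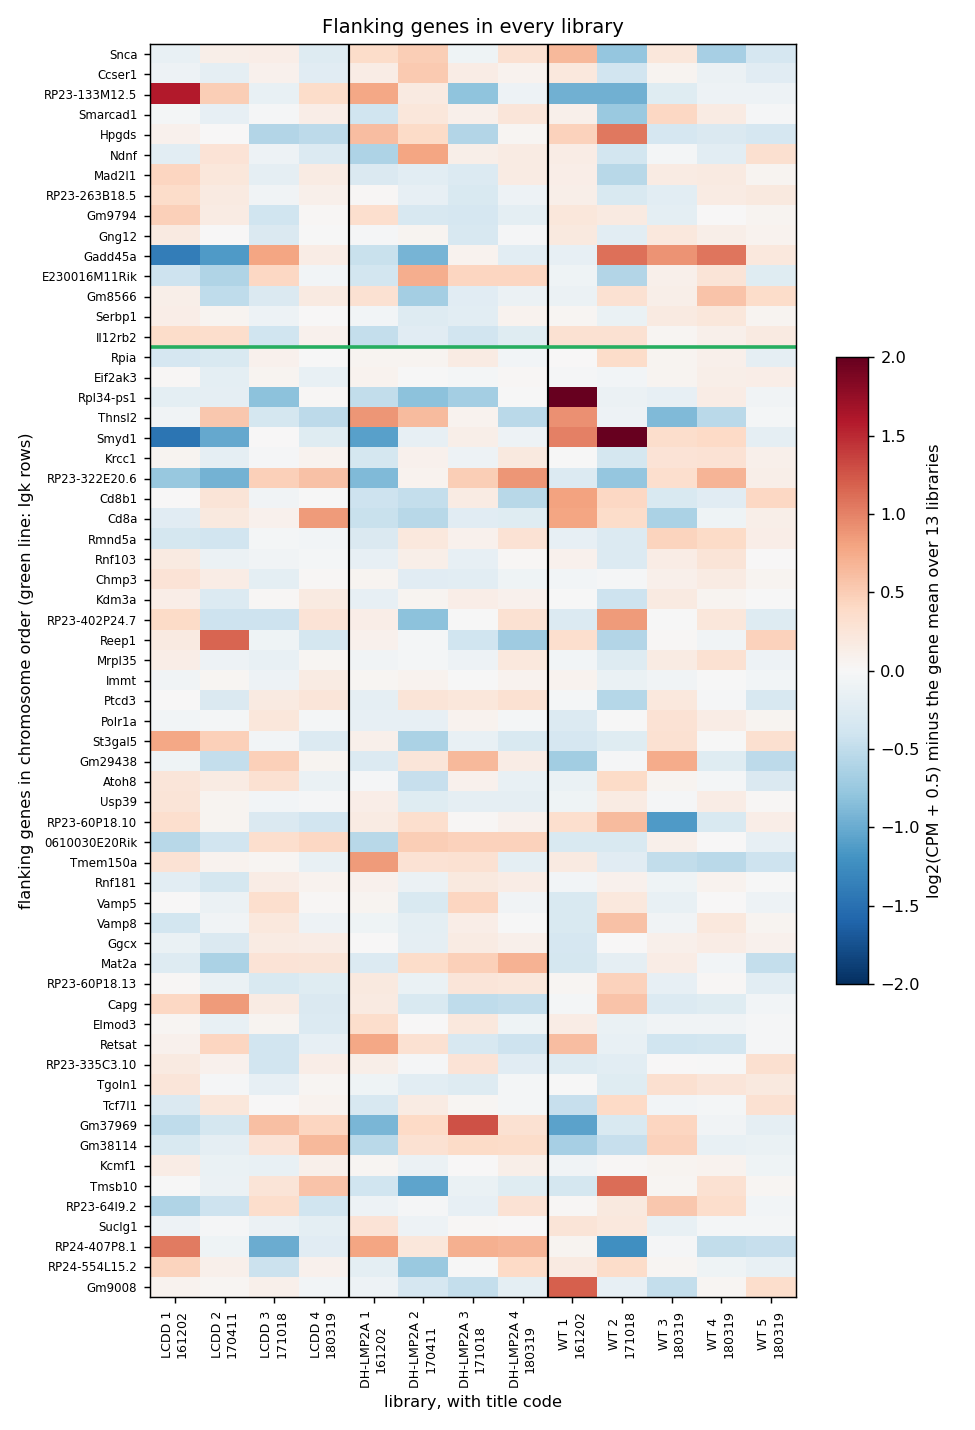
Log2(CPM + 0.5) of 62 of the 64 flanking genes (rows, in chromosome order) in each of the 13 libraries (columns, by genotype), minus the mean of that gene over the libraries. Colours stop at 2 in either direction, which truncates Rpl34-ps1 in WT replicate 1 and Smyd1 in WT replicate 2, and the green line marks the place of the Igk rows.

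By role, 0 of the flanking genes were called in any list. The 12 listed mitochondrial and metabolic enzymes, 11 of them above the count threshold, summed to 725 to 898 CPM in LCDD, 821 to 1054 in DH-LMP2A and 723 to 868 in WT. The median log2 fold change of the 11 was -0.15, -0.02 and 0.02 for LCDD against DH-LMP2A, LCDD against WT and DH-LMP2A against WT, beside -0.01, 0.01 and 0.00 over all genes. Suclg1, a subunit of succinyl-CoA ligase, had log2 fold changes of -0.16, -0.16 and 0.00 in that order. St3gal5, the sialyltransferase that makes the ganglioside GM3, had 82.9 ± 27.5 CPM (SD, n = 4) in LCDD, 57.9 ± 12.2 (n = 4) in DH-LMP2A and 69.2 ± 14.4 (n = 5) in WT. Its log2 fold change between LCDD and DH-LMP2A was 0.52 (SE 0.24, edgeR adjusted p = 0.375).

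All 7 listed genes of vesicle traffic passed the count threshold, and their medians were 0.02, 0.03 and -0.16. Chmp3, of the ESCRT machinery that sorts receptors into multivesicular bodies, had log2 fold changes of 0.19, 0.03 and -0.16. The fusion proteins Vamp8 and Vamp5 gave -0.04, -0.20 and -0.16, and 0.02, 0.13 and 0.11. Tmem150a, a plasma membrane protein of this list, had 18.2 ± 2.31 CPM (SD, n = 4) in LCDD, 22.4 ± 6.92 (n = 4) in DH-LMP2A and 14.3 ± 3.21 (n = 5) in WT. Its log2 fold change was 0.65 for DH-LMP2A against WT (SE 0.21, edgeR adjusted p = 0.210). The 5 ubiquitin genes had medians of -0.02, -0.07 and -0.04. Rmnd5a, of a ligase complex that degrades metabolic enzymes, had -0.29, -0.33 and -0.04.

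The 6 measured regulators of chromatin and transcription, of 8 listed, had medians of 0.07, 0.01 and -0.03. Kdm3a, a histone demethylase, gave log2 fold changes of -0.01, 0.05 and 0.05. Foxi3 and Atoh1, the listed genes under the threshold, had 0 counts in every library.

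In the stress list, Gadd45a, a growth arrest gene that answers DNA damage, had 99.4 ± 68.5 CPM (SD, n = 4) in LCDD, 85.7 ± 24.1 (n = 4) in DH-LMP2A and 177 ± 62.6 (n = 5) in WT. The log2 fold change was -0.83 for LCDD against WT (SE 0.42, edgeR adjusted p = 0.491) and -1.05 for DH-LMP2A against WT (SE 0.42, adjusted p = 0.341). LCDD libraries ran from 41.3 to 187 CPM and covered most of the range of the other genotypes. Of the actin genes, Capg, a filament-capping protein of macrophages and other motile cells, had 35.0, 47.4, 29.2 and 21.2 CPM in LCDD and 29.5, 20.9, 18.2 and 18.6 CPM in DH-LMP2A. DH-LMP2A replicate 1, at 29.5 CPM, lay above LCDD replicates 3 and 4, and the log2 fold change was 0.61 (SE 0.25, edgeR adjusted p = 0.320). Summed macrophage and other leukocyte markers ran from 93.8 to 225 CPM in LCDD and 79.4 to 181 CPM in DH-LMP2A, and their part in the Capg values was not tested.

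The lymphocyte genes were low. Cd8a and Cd8b1, the alpha and beta chains of the CD8 co-receptor, had 1.19 ± 0.572 and 0.808 ± 0.142 CPM (SD, n = 4) in LCDD. They had 0.581 ± 0.117 and 0.532 ± 0.257 CPM (n = 4) in DH-LMP2A, and 1.09 ± 0.565 and 1.03 ± 0.493 CPM (n = 5) in WT. Cd8a counted 0.691, 1.09, 0.970 and 2.01 CPM in LCDD and 0.524, 0.445, 0.685 and 0.671 CPM in DH-LMP2A. The groups did not overlap, though their closest libraries stood at 0.691 and 0.685 CPM. The log2 fold change of Cd8a was 1.04 (SE 0.45, edgeR adjusted p = 0.344) between LCDD and DH-LMP2A, and that of Cd8b1 was -0.98 (SE 0.40, adjusted p = 0.345) between DH-LMP2A and WT. Il23r, the interleukin 23 receptor beside Il12rb2, had 7 counts in all.

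Every LCDD library lay above every DH-LMP2A library for 3 of the 64 genes, Cd8a, Tmsb10 and Gm9008, where 4.74% of all genes did so. The reverse held for 0 genes, against 2.89%. Between LCDD and WT, 0 genes separated in either direction, against 2.97% above and 1.63% below. DH-LMP2A lay above WT for 1 gene, RP24-407P8.1, against 2.64%, and below it for 2, Il12rb2 with its bias from the threshold among them, against 2.33%. Gm9008 and RP24-407P8.1 were named after their values were seen.

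Of the other genes with an unadjusted p under 0.05, Smyd1, Rpl34-ps1 and RP23-133M12.5 were named after their values were seen. Smyd1, a methyltransferase of muscle, counted 11.3, 29.8, 6.97, 7.16 and 4.66 CPM in WT. It counted 1.61, 2.37, 5.39 and 4.42 CPM in LCDD and 2.25, 4.70, 5.82 and 4.97 CPM in DH-LMP2A. WT replicate 2 was the highest by far, and WT replicate 5 lay within the other genotypes. The log2 fold change of LCDD against WT was -1.80 (SE 0.53, edgeR adjusted p = 0.148), and leaving out each library in turn gave -2.09 to -1.16. DESeq2 called it, at -1.82 (adjusted p = 0.0168), where it called 4.34% of all genes. The pseudogene Rpl34-ps1 had 15.2 CPM in WT replicate 1 and at most 1.21 CPM in any other library. Leaving out each library in turn moved its log2 fold change between -2.58 and -0.32 for LCDD against WT, from -2.28 with all libraries, the weakest being without WT replicate 1. RP23-133M12.5, which GENCODE M21 does not match, had 0.377 to 2.42 CPM in LCDD and 0 to 0.406 CPM in WT, and the difference was 2.26 on the log2 scale (SE 0.90, edgeR adjusted p = 0.287). It reached 10 counts in 3 LCDD, 2 DH-LMP2A and 1 WT libraries. It thus met the count threshold mostly through the groups where it is high, and this difference is a description.

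Mad2l1 encodes MAD2, a protein of the spindle checkpoint, which holds dividing cells until their chromosomes are attached. Its log2 fold change was 0.34 (SE 0.21, edgeR adjusted p = 0.551) between LCDD and DH-LMP2A and 0.17 (SE 0.20, adjusted p = 0.858) between LCDD and WT. Of the 7 checkpoint genes tested, 2 were called between LCDD and WT, where 1.84% of all genes were called. Both were higher in LCDD, Bub1b at 1.44 (SE 0.29, adjusted p = 0.0216) and Cdc20 at 1.12 (SE 0.24, adjusted p = 0.0333). Neither was called between LCDD and DH-LMP2A, where the values were 0.93 and 0.99. Mad2l1 had 4.76 CPM in WT replicate 2 and 7.58 to 8.28 CPM in the other WT libraries.

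The number in the sample title was compared as well. Titles carry 4 such numbers, each shared by libraries of at least 2 genotypes, and the labels do not say what they stand for. In a model with genotype and title number, a test added after the data were seen called 11 of 64 flanking genes for the title number, a share near the 18.6% of all genes. The values that follow describe 4 of those genes and show nothing particular to the flank. Retsat, the retinol saturase of vitamin A metabolism, counted 22.9 to 37.3 CPM in the 3 libraries numbered NS161202 and 26.7 to 29.3 in the 2 numbered NS170411. It counted 16.4 to 19.3 CPM in the 3 numbered NS171018 and 16.0 to 21.2 CPM in the 5 numbered NS180319. The libraries of the former 2 numbers were all above those of the latter 2, whatever the genotype. By genotype Retsat had 21.9 ± 5.61 CPM (SD, n = 4) in LCDD, 24.3 ± 9.91 (n = 4) in DH-LMP2A and 21.3 ± 7.06 (n = 5) in WT, with log2 fold changes of -0.15, 0.04 and 0.19.

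By the spans of the deposited table, Elmod3 starts 62 bases from Retsat on the other strand. The 250 bases before the RefSeq start of Retsat, which lies inside its deposited span, are shown because they cover both deposited starts, at chr6:72598352-72598601 on the plus strand of GRCm38.p6, with TATAAA in capitals.
Retsat: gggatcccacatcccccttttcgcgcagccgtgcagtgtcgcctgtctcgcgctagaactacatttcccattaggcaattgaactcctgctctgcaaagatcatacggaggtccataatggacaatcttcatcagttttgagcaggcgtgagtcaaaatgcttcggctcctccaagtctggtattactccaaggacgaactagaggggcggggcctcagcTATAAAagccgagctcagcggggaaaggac
The TATAAA box was found in 12.4% of promoter windows and in 5 of the 41 flanking windows. Elmod3, a GTPase-activating protein, counted 14.6 to 22.8 CPM over the 13 libraries, while Retsat counted 16.0 to 37.3 CPM.

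Thnsl2, a threonine synthase-like enzyme, counted 18.3 to 36.8 CPM in the libraries numbered NS161202 and 10.3 to 18.7 CPM in those numbered NS180319. Gadd45a counted 41.3 to 96.2 CPM in the former and 93.7 to 229 CPM in the latter. Summed tubule markers were 1688, 3324 and 3495 CPM in the libraries numbered NS161202, 2169 and 2051 in those numbered NS170411, 749, 978 and 444 in those numbered NS171018, and 300 to 1022 in those numbered NS180319. The part of tubule content in these genes was not tested. With the title number in the model as a block, 0 of 64 flanking genes were called between LCDD and DH-LMP2A, where all-gene calls were 6.10%. Values of single genes given for this comparison came from fits without the block. With it, the edgeR adjusted p was 0.105 for Tmsb10, 0.138 for Capg and 0.223 for Mat2a.

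**Figure D4:**
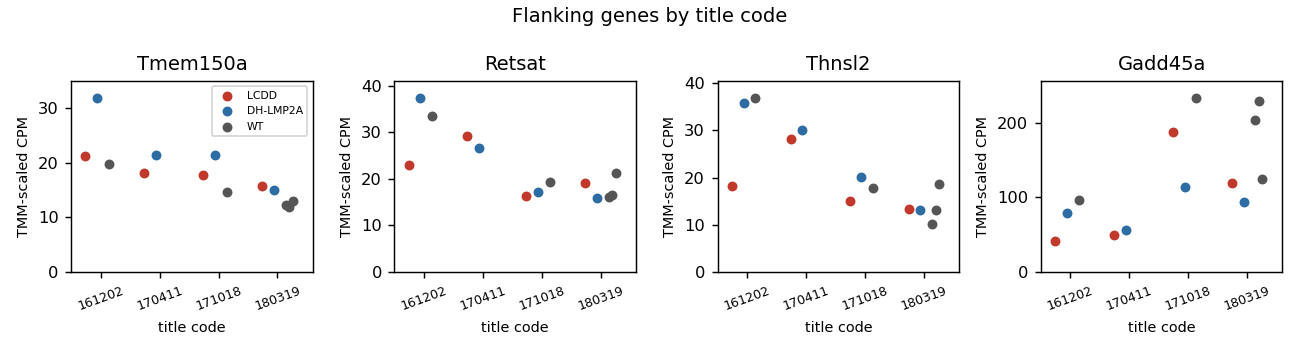
CPM (vertical axes) of Tmem150a, Retsat, Thnsl2 and Gadd45a by the number in the sample title (horizontal axis), with 1 point per library and colours for the genotypes. Retsat is at 22.9 CPM or more in the 5 libraries of the former 2 numbers and at 21.2 CPM or less in the 8 others, in all genotypes.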

How the data were processed

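Polyadenylated RNA of bead-purified glomeruli was sequenced in 13 libraries. The authors deposited raw read counts per gene with summed exon lengths, per the file headers. The submitters' processing notes name STAR 2.4.0a, featureCounts, Subread 1.5.0-p3 and DESeq2, on mm10 (GRCm38). The strand setting and the treatment of multiply aligned reads are not given in the sources used here.

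Genes were filtered with filterByExpr, which kept 16738, scaled by TMM and fitted over all 13 libraries with 1 coefficient per genotype in edgeR 4.0.16 (limma 3.58.1, R 4.3.3), using the quasi-likelihood test with Benjamini-Hochberg adjustment over all genes tested. Standard errors came from the fitted information matrix and the posterior quasi-dispersion, and 95% intervals from the t distribution. CPM use TMM-scaled totals, and RPKM the deposited lengths. The test was tested on simulated data. Only the labels say that the libraries are separate samples, and replicates were numbered in accession order. Libraries carry no molecular identifiers, so depth gives counting error only.

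The members and lists were chosen with earlier results of these data known. Named with every library's value were the 2 members nearest to the Igk rows on either side, the 3 with the highest mean RPKM and any called member. Others were named from role lists, and 2 members are not reported here by name. The title number was compared as a pairing, by correlating the deviations of libraries from their genotype means. Pairs with the same number averaged 0.421 between LCDD and DH-LMP2A (lowest 0.153). They averaged 0.214 between LCDD and WT (lowest -0.165) and 0.298 between DH-LMP2A and WT (lowest -0.159). Pairs with different numbers averaged -0.139, -0.072 and -0.091, but reached 0.524, 0.477 and 0.315. Deviations from a genotype mean offset each other within the genotype. A positive average for pairs with the same number therefore pushes that of the other pairs below it, and their negative sign is no separate evidence. The ranges overlap, so they cannot show which libraries are paired. In the genotype comparisons the number served only as a block in an alternative. Alternatives were RLE size factors, DESeq2 1.42.0, other filters, fewer libraries, the title number as a block, and tubule markers or Xist as covariates. An added limit on fold change and a narrower window were counted on the main fit.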

Additional observations from a re-analysis of the deposited data

Results flagged for a closer look

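In groups of 4 or 5 libraries, a sample was picked out where its gap to the nearest other library was larger than Dixon's 95% limit allows. Over the 186 groups of 62 genes tested, 10 were picked out, and chance alone gives about 1 in 20, or 9.3. All values are log2 CPM, with the range of the other libraries of the group after each.

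Rpl34-ps1 stood at 3.93 in WT replicate 1, against -0.05 to 0.37. Capg stood at 5.28 in WT replicate 2, against 4.43 to 4.66, and Mad2l1 at 2.28 in the same library, against 2.94 to 3.06. In DH-LMP2A replicate 1, Ptcd3 was at 5.19 (others 5.61 to 5.68), 0610030E20Rik at 5.25 (others 6.27 to 6.29) and Gm38114 at -2.10 (others -0.41 to -0.28). RP23-60P18.13 was at 2.51 in DH-LMP2A replicate 2 (others 2.86 to 2.91), and Mrpl35 at 4.57 in DH-LMP2A replicate 4 (others 4.26 to 4.31). In LCDD replicate 3, Polr1a was at 6.15 (others 5.85 to 5.88) and RP23-335C3.10 at -0.96 (others -0.19 to -0.05).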

How the results depend on the processing

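Over the 3 comparisons, the count of 0 flanking genes called held in 30 settings other than leaving out a replicate, and not in 3. An added limit on fold change and a narrower window are among the 30. They only narrowed the main calls, so they could give nothing but 0. DESeq2 called 1 between LCDD and WT (Smyd1). The tubule covariate called 4 of 64 between DH-LMP2A and WT, where 5.01% of all genes were called: Mat2a, Rpl34-ps1, Gm37969 and Gm9008. Rpl34-ps1 and Gm9008 were highest in WT replicate 1, at 470 and 220 reads, which is also the library with the highest summed tubule markers. With the title number as a block, 1 was called between DH-LMP2A and WT, Tmem150a at 0.50 (adjusted p = 0.0425, where 3.36% of all genes were called), and 0 in the other comparisons. Whether the title numbers pair the libraries was not settled. Leaving out each replicate gave 0 to 1 between LCDD and DH-LMP2A, 0 to 1 between LCDD and WT and 0 to 0 between DH-LMP2A and WT. The calls came without LCDD replicate 3: Il12rb2, with its bias from the threshold, and RP23-64I9.2. The latter had 10 reads in LCDD replicate 3 and 1, 3 and 3 in the other LCDD libraries. It reached 10 counts in 1 LCDD, 1 DH-LMP2A and 3 WT libraries, so it met the threshold mostly through WT, where it is high. Its call carries that bias too and leaves out the library that goes the other way. Over all genes, calls for LCDD against DH-LMP2A, LCDD against WT and DH-LMP2A against WT were 334, 308 and 105. They were 812, 726 and 458 by DESeq2, 1021, 536 and 562 with the block, 1062, 336 and 838 with the tubule covariate, 241, 124 and 44 with Xist as a covariate, 153, 116 and 54 at a mean of at least 5 CPM, and 213, 185 and 77 with only the genotypes compared. Small fold changes turned direction. Tmsb10 for LCDD against WT was 0.084 with the block and 0.14 with the tubule covariate, and -0.27 to 0.14 when replicates were left out. Rpia for DH-LMP2A against WT was 0.081 with the tubule covariate, and -0.085 to 0.040 when replicates were left out. Il12rb2 for LCDD against WT was 0.25 with Xist as a covariate, and -0.30 to 0.20 when replicates were left out. Without the single-mouse WT libraries, Tgoln1 was 0.11 for LCDD against WT and Eif2ak3 0.020 for DH-LMP2A against WT. The causes were not tested. Depth limits the genes near 10 counts per library, such as Il12rb2.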
